A study of Mus musculus with 8 samples.

Results

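Intraepithelial lymphocytes (IELs) are the lymphocytes, mostly T cells, that sit among the epithelial cells of the gut lining. The 10 transcription regulators described here are Tbx21, Eomes, Runx3, Zbtb7b, Id2, Id3, Gata3, Bcl6, Zbtb16 and Ikzf2, which direct the choice between lymphocyte lineages. They were taken by gene symbol from a list, which was chosen with earlier results of these data known. All 10 were found among the 25230 gene symbols counted.

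IELs of 8 C57BL/6J mice were sequenced as strand-specific mRNA libraries, 1 per mouse. The Ex4 group was 4 mice injected intraperitoneally with 35 µg of anti-CD3 antibody and 10 nmol/kg of exendin-4, an agonist of the glucagon-like peptide-1 receptor. The PBS group was 4 mice given the same antibody with PBS. Both groups were therefore activated through CD3, and no mouse without anti-CD3 was included, so the resting level of these genes was not measured. Gut cells were collected 3 h after injection, passed over Percoll, then sorted by CD45, which leukocytes in general carry, so B cells and myeloid cells were not removed by the sort.

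Lymphocyte lineages are set by regulators that work in opposed pairs and small families. Runx3 and ThPOK (Zbtb7b) oppose each other in the choice between the CD8 and CD4 lineages, and CD4 T cells that enter the gut epithelium are known to gain Runx3 and T-bet and to lose ThPOK. T-bet (Tbx21) and Eomes are related T-box factors of cytotoxic lymphocytes, and T-bet is needed for IELs that carry the CD8αα homodimer. Id2 and Id3 bind E proteins and keep them from DNA. GATA3, Bcl6, PLZF (Zbtb16) and Helios (Ikzf2) are associated with type 2, follicular helper, innate-like and regulatory or self-reactive T cells.

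Total gene counts ran from 13386889 to 31843413 in Ex4 libraries and from 18266449 to 25333644 in PBS libraries. At a common depth Ex4 3 and PBS 2 had the fewest genes, 16469 and 16142, against 17523 to 19087 in the other libraries. PBS 1 stood apart in Klrb1c, a natural killer receptor gene, at 102 CPM against 3.72 to 9.87 CPM in the other libraries. Other markers of NK and innate lymphoid cells did not all follow it. Kit was also highest in PBS 1, at 146 CPM, whereas Klre1 was lowest there, at 37.5 CPM. Ncr1 was at 12.8 CPM in PBS 1, below the 13.4 CPM of PBS 3. All 48 marker genes of T, NK, B, myeloid and epithelial cells had counts in every library. Cd3e ran from 642 to 1061 CPM in Ex4 and from 581 to 955 CPM in PBS, whereas Cd4 ran from 4.42 to 17.1 CPM in Ex4 and from 4.71 to 6.06 CPM in PBS. CPM here is the usual depth-normalised count with scaled library sizes, and each value after ± is an SD over the 4 libraries of a group.

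No regulator passed the test between Ex4 and PBS. In edgeR's quasi-likelihood test with Benjamini-Hochberg adjustment over 14691 genes, 0 of the 10 were called, where 0.0136% of all genes were, and their adjusted p-values ran from 0.556 to 0.995. At an unadjusted p under 0.05 there was 1 of the 10, Runx3, where 7.61% of all genes lay under that value. The Ex4 and PBS values overlapped for all 10, whereas 4.95% of all genes showed no overlap. DESeq2 called 0 of the 7 regulators for which it gave an adjusted p, where it called 83 genes in all. Limma-voom called 0 of 10, where it called 1 gene in all. Each had 2 of the 10 at an unadjusted p under 0.05. The share of all genes under that value was not taken for these methods. The log2 fold change of Ex4 over PBS was above 0 for 5 regulators and below 0 for 5, with a median of 0.015 beside 0.020 for all genes tested. In bulk RNA of a sorted mixture, fewer cells of a type and less RNA per cell cannot be told apart.

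**Figure D1:**
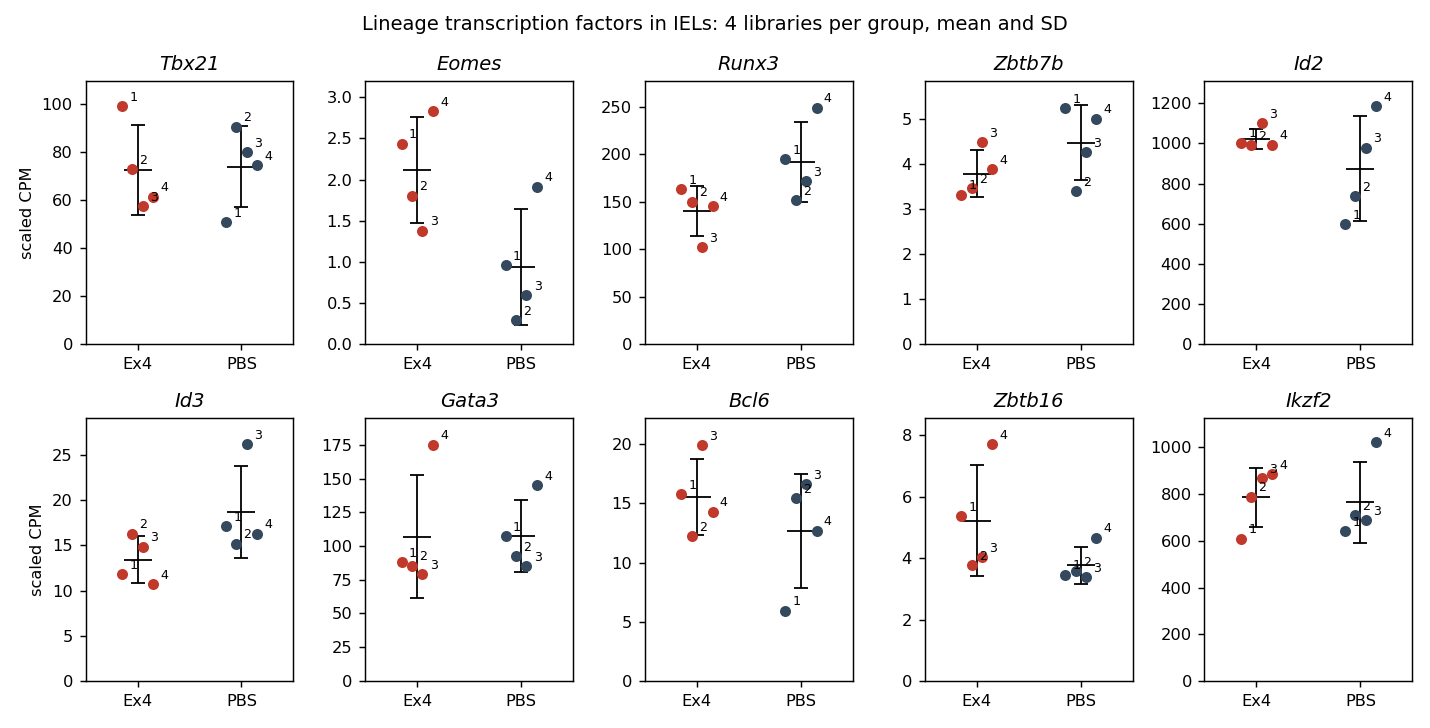
Scaled CPM (linear axis from 0) of the 10 regulators in the 4 Ex4 libraries (red) and 4 PBS libraries (dark blue); numbers are replicates, and the bars are the mean and SD. The groups overlap in every panel, with means of 140.3 CPM in Ex4 and 191.8 CPM in PBS for Runx3 and 2.11 CPM in Ex4 and 0.940 CPM in PBS for Eomes.

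Tbx21 (chr11:97098071-97115331, minus strand, in GENCODE M21 on GRCm38, as are the positions of the other genes) encodes T-bet, which drives interferon-gamma production and cytotoxic programmes. It had 98.9, 72.7, 57.3 and 61.3 CPM in Ex4 libraries 1 to 4, against 50.6, 90.4, 79.8 and 74.4 CPM in PBS libraries 1 to 4. The highest value was in Ex4 1 and the lowest in PBS 1, and the 2 groups covered nearly the same range. The means were 72.6 ± 18.7 CPM in Ex4 and 73.8 ± 16.8 CPM in PBS. The log2 fold change of -0.02 (SE 0.20) had a 95% interval from -0.45 to 0.40 and an adjusted p of 0.988 in edgeR, and it took either sign as single libraries were left out, from -0.22 without Ex4 1 to 0.075 without PBS 2.

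Eomes (chr9:118478212-118486132, plus strand), the T-box relative of T-bet found in memory CD8 T cells and NK cells, was the scarcest of the 10. Its raw counts were 55, 48, 40 and 40 in Ex4 libraries 1 to 4 and 20, 7, 12 and 34 in PBS libraries 1 to 4, so counting error weighs on it. The 7 reads of PBS 2 have an exact 95% Poisson interval from 2.81 to 14.4 counts, which covers counting error only. Scaled, these were 2.44, 1.81, 1.38 and 2.83 CPM in Ex4 and 0.962, 0.290, 0.595 and 1.91 CPM in PBS. PBS 1, 2 and 3 lay below every Ex4 library, and PBS 4 lay inside the Ex4 range. The means were 2.11 ± 0.646 CPM in Ex4 and 0.940 ± 0.704 CPM in PBS. Its log2 fold change of 1.17 (SE 0.63), the highest of the 10, had a wide 95% interval, from -0.18 to 2.52, with an edgeR adjusted p of 0.695. It was 0.85 without PBS 2, 1.75 without PBS 4 and 0.89 with an epithelial marker score as a covariate. PBS 1, whose Klrb1c was at 102 CPM, had 0.962 CPM of Eomes, inside the range of the other PBS libraries.

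Among 11 tested genes known to be driven by T-bet or Eomes, 0 were called, with 8 above and 3 below 0 and a median log2 fold change of 0.19. Il18rap, a subunit of the IL-18 receptor, was at 51.1, 26.8, 35.7 and 45.1 CPM in Ex4 and 12.3, 32.5, 23.2 and 23.3 CPM in PBS (log2 fold change 0.79, SE 0.27, edgeR adjusted p = 0.477). Ifng, which encodes interferon-gamma, was at 61.0, 101, 126 and 73.5 CPM in Ex4 and 100.3, 112, 196 and 173 CPM in PBS (-0.69, SE 0.26, edgeR adjusted p = 0.554). The pair lay on opposite sides of 0, and Tbx21 itself was near 0. Klrg1, a receptor of effector cells, had a log2 fold change of 0.66 (edgeR adjusted p = 0.658).

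Runx3 (chr4:135120652-135177990, plus strand) is the CD8 lineage regulator that silences Cd4 and supports residence in tissues. It had 163, 150.0, 102 and 146 CPM in Ex4 libraries 1 to 4, against 195, 152, 172 and 249 CPM in PBS libraries 1 to 4. Ex4 2, 3 and 4 lay below every PBS library and PBS 1, 3 and 4 above every Ex4 library, so that the overlap came from Ex4 1 and PBS 2 alone. The means were 140.3 ± 26.3 CPM in Ex4 and 191.8 ± 42.2 CPM in PBS, a fold of 0.731 with a 95% interval from 0.564 to 0.947. The log2 fold change of -0.45 (SE 0.17) had an unadjusted p of 0.0212 in edgeR, the smallest of the 10, and an adjusted p of 0.556. Of all genes tested, Runx3 stood at position 560 by p. Its log2 fold change was below 0 in all 19 alternative fits, from -0.59 with the epithelial score to -0.32 without PBS 4, and its smallest adjusted p among them was 0.267, in DESeq2. Every other regulator except Tbx21, Gata3 and Ikzf2 also kept its sign in all 19, and these fits draw on the same libraries.

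Runx3 is transcribed from a distal and a proximal promoter, and gene counts do not separate them. The 250 bases before the distal start in RefSeq's GRCm38.p6, chr4:135120395-135120644 on the plus strand, are shown because they hold a pair of close RUNX sites, the motif that RUNX proteins bind. Capitals mark ACCACA, the reverse complement of TGTGGT, whose first bases lie 134 and 126 bases before the start.

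Runx3 distal promoter: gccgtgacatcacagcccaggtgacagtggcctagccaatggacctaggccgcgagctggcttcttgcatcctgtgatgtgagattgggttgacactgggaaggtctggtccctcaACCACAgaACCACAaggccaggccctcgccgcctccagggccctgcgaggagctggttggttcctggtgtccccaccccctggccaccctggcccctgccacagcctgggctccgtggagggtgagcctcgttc

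The motif TGTGGT on either strand occurred in 14.1% of 32851 mouse promoter windows of that length, and in 2 of the 11 windows of these regulators. The other was an internal window of Zbtb7b, with a single match. Both are matches of letters, and binding was not measured here.

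Zbtb7b (chr3:89377644-89394776, minus strand) encodes ThPOK, the CD4 lineage regulator that opposes Runx3. It was scarce, at 3.32, 3.46, 4.48 and 3.89 CPM in Ex4 libraries 1 to 4 and 5.25, 3.40, 4.27 and 5.01 CPM in PBS libraries 1 to 4. PBS 1 and 4 were above every Ex4 library, whereas PBS 2 was near the lowest Ex4 values. The means were 3.79 ± 0.522 CPM in Ex4 and 4.48 ± 0.830 CPM in PBS, with a log2 fold change of -0.24 (SE 0.34, 95% interval -0.96 to 0.48, edgeR adjusted p = 0.928). Its exons share 116 bases with the antisense gene Gm15417, which had 124 counts in the 8 libraries together, and no source used here says whether the counting took account of strand.

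The ratio of Runx3 to Zbtb7b, taken within each library per kilobase of exon, had log2 values of 5.77, 5.59, 4.67 and 5.37 in Ex4 and 5.37, 5.63, 5.48 and 5.79 in PBS. Runx3 was thus from 25.4 to 55.4 times Zbtb7b in every library, and the groups overlapped. Ex4 3 was the lowest. The mean log2 ratios were 5.35 ± 0.482 in Ex4 and 5.57 ± 0.183 in PBS, and the difference of -0.22 became 0.0094 without Ex4 3.

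Of 5 CD4 and CD8 lineage genes, 0 were called. Cd8a was at 953, 1219, 998 and 1070.5 CPM in Ex4 and 2074, 1513, 1363 and 1449.6 CPM in PBS, so that every Ex4 library lay below every PBS library (log2 fold change -0.59, SE 0.16, edgeR adjusted p = 0.351). PBS 1, which also stood apart in Klrb1c, had the highest Cd8a. Cd8b1, which encodes the other chain of the CD8αβ heterodimer, was at 38.1, 23.6, 36.6 and 44.2 CPM in Ex4 and 20.7, 27.2, 26.8 and 33.5 CPM in PBS (0.40, SE 0.20, edgeR adjusted p = 0.685). Cd4 had a log2 fold change of 0.57 (SE 0.41, edgeR adjusted p = 0.802), with 17.1 CPM in Ex4 1 and at most 6.06 CPM elsewhere.

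Id2 (chr12:25093799-25097140, minus strand), an inhibitor of E proteins needed for innate lymphocytes and effector T cells, was the most abundant of the 10. It had 1004, 991, 1099.5 and 995 CPM in Ex4 libraries 1 to 4 and 598, 736, 979 and 1184 CPM in PBS libraries 1 to 4. The Ex4 libraries lay close together, with a coefficient of variation of 5.05%, whereas the PBS libraries spread over 29.7%. PBS 1, 2 and 3 were below every Ex4 library and PBS 4 above all of them. The means were 1022 ± 51.7 CPM in Ex4 and 874 ± 260.0 CPM in PBS. For Id2 the log2 fold change of 0.23 (SE 0.18, 95% interval -0.17 to 0.62) had an edgeR adjusted p of 0.838, and it was 0.071 without PBS 1, 0.39 without PBS 4 and 0.44 with the epithelial score.

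Id3 (chr4:136143497-136145755, plus strand), the relative of Id2 that is kept by naive and memory-prone T cells and restrains gamma-delta and innate-like cells, lay on the other side of 0. It had 11.8, 16.3, 14.9 and 10.7 CPM in Ex4 libraries 1 to 4 and 17.1, 15.2, 26.2 and 16.3 CPM in PBS libraries 1 to 4. PBS 1, 3 and 4 lay above every Ex4 library, PBS 4 by a small margin, and PBS 2 lay between Ex4 2 and Ex4 3. The means were 13.4 ± 2.61 CPM in Ex4 and 18.7 ± 5.06 CPM in PBS. This gave a log2 fold change of -0.48 (SE 0.23) with a 95% interval from -0.96 to 0.0091 and an edgeR adjusted p of 0.659.

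The summed level of 10 epithelial markers was 281, 527, 499.5 and 459 CPM in Ex4 and 503, 515, 993 and 638 CPM in PBS, and PBS 3 had the highest value of both Id3 and this sum. All 10 epithelial markers had log2 fold changes below 0, from -0.75 to -0.36, with 0 called and none at 0 counts. With the epithelial score as a covariate the log2 fold change of Id3 was -0.15 (edgeR adjusted p = 0.926), and it was -0.31 without PBS 3. The score is the mean log2 CPM of these 10 markers. It differed between the groups, so this covariate cannot be fully separated from treatment. The part of epithelial RNA in the Id3 level was not tested.

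The log2 ratio of Id3 to Id2 per kilobase of exon was -5.97, -5.48, -5.76 and -6.09 in Ex4 and -4.68, -5.15, -4.78 and -5.73 in PBS. PBS 1, 2 and 3 lay above every Ex4 library, and PBS 4 lay inside the Ex4 range. The means were -5.82 ± 0.266 in Ex4 and -5.09 ± 0.478 in PBS, a difference of -0.74 that ran from -0.96 without PBS 4 to -0.60 without PBS 1. This ratio was described and not tested. The E proteins that the Id proteins hold were measured as well: Tcf3, which encodes E2A, was at a log2 fold change of 0.059 and Tcf12, which encodes HEB, at -0.17, each with an SE of 0.18 (edgeR adjusted p = 0.969 and 0.879). Tcf4, which encodes a further E protein, E2-2, was at -0.11 (SE 0.23, edgeR adjusted p = 0.950). Of 5 tested Id, E protein and related genes outside the 10, Lyl1 being the related gene, 0 were called. There was 1 above and 4 below 0, and the smallest p belonged to Id1 (-0.75, SE 0.44, edgeR adjusted p = 0.733).

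**Figure D2:**
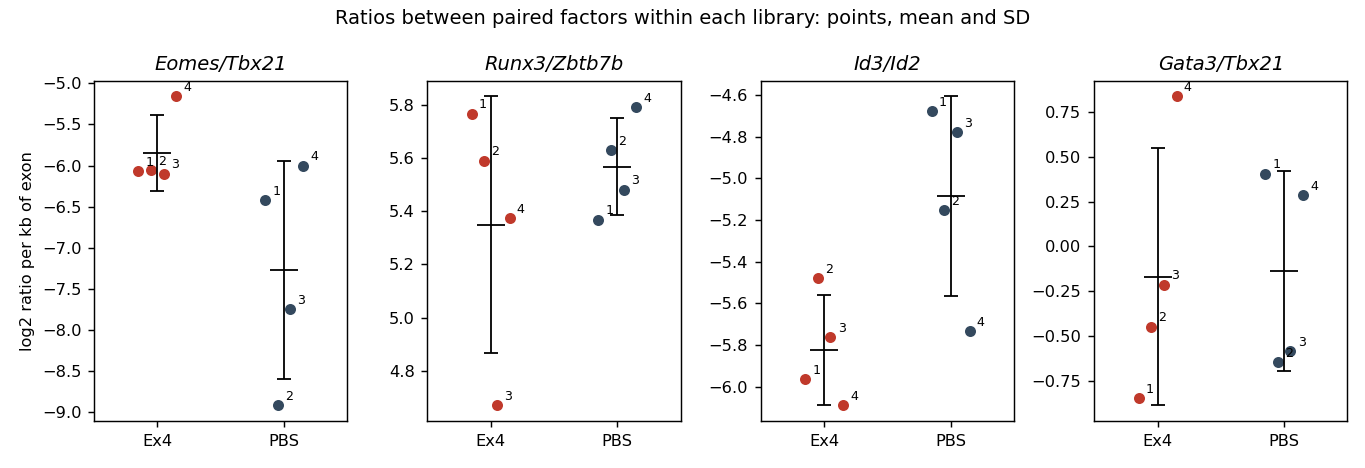
Log2 ratios of Eomes to Tbx21, Runx3 to Zbtb7b, Id3 to Id2 and Gata3 to Tbx21 per kilobase of exon within each library (each panel has its own axis); Ex4 is red, PBS dark blue, numbers are replicates and bars the mean and SD. The Id3 to Id2 ratio is lower in every Ex4 library than in PBS 1, 2 and 3, and PBS 4 at -5.73 lies among the Ex4 values.

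Gata3 (chr2:9857078-9890034, minus strand) encodes the regulator of T cell development and of type 2 cytokines. It had 87.9, 85.3, 79.0 and 175 CPM in Ex4 libraries 1 to 4 and 107, 92.4, 85.1 and 145 CPM in PBS libraries 1 to 4. Replicate 4 was the highest in both groups, and Ex4 4 stood well apart from the other Ex4 libraries. The means were 106.8 ± 45.6 CPM in Ex4 and 107.4 ± 26.6 CPM in PBS, with a log2 fold change of -0.010 (SE 0.26, 95% interval -0.57 to 0.55, edgeR adjusted p = 0.995). Without Ex4 4 the log2 fold change was -0.36 and without PBS 4 it was 0.15, neither of which was called. Its exons share 77 bases with another gene on the same strand, which had 28 counts in the 8 libraries together.

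The log2 ratio of Gata3 to Tbx21 per kilobase of exon was -0.85, -0.45, -0.21 and 0.84 in Ex4 and 0.40, -0.64, -0.59 and 0.28 in PBS. The mean was -0.17 ± 0.718 in Ex4 and -0.14 ± 0.557 in PBS, and the sign differed among libraries of both groups. That of Eomes to Tbx21 was -6.07, -6.06, -6.10 and -5.16 in Ex4 and -6.42, -8.92, -7.75 and -6.00 in PBS, so that Tbx21 exceeded Eomes in every library. Its means were -5.85 ± 0.458 in Ex4 and -7.27 ± 1.33 in PBS, with PBS 4 inside the Ex4 range, and the difference of 1.43 was 0.88 without PBS 2.

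Of 9 GATA3 target genes 5 were tested and 0 called, with all 5 above 0 and a median log2 fold change of 0.77. The type 2 cytokine gene Il13 lay below the filter on low counts, at no more than 0.495 CPM in any library, and so did Il5, at no more than 2.12 CPM. Areg, which encodes the repair factor amphiregulin, had 13.5, 3.95, 12.7 and 12.2 CPM in Ex4 and 0.385, 6.27, 5.76 and 8.44 CPM in PBS, with a log2 fold change of 1.02 (SE 0.68, edgeR adjusted p = 0.790). Ccr4 and Ccr8, chemokine receptor genes, had 0.94 and 0.77 (edgeR adjusted p = 0.814 and 0.848), and PBS 1 held their lowest values, 0.144 and 0.192 CPM.

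Bcl6 (chr16:23965052-23988852, minus strand) is a BTB zinc finger repressor of follicular helper T cells and germinal centre B cells. It had 15.8, 12.2, 19.9 and 14.3 CPM in Ex4 libraries 1 to 4 and 5.92, 15.4, 16.6 and 12.7 CPM in PBS libraries 1 to 4. PBS 1 was below all the others, and the other PBS libraries lay within the Ex4 range. The means were 15.55 ± 3.25 CPM in Ex4 and 12.7 ± 4.79 CPM in PBS. For Bcl6 the log2 fold change of 0.30 (SE 0.29, 95% interval -0.32 to 0.91, edgeR adjusted p = 0.870) was 0.049 without PBS 1 and 0.65 with the epithelial score (edgeR adjusted p = 0.664). The summed level of 7 B and plasma cell markers was 259, 825, 2203 and 415 CPM in Ex4 and 1458, 909.7, 963 and 869.9 CPM in PBS, with the highest sum in Ex4 3, where Bcl6 was also highest. In PBS 1 most of that sum was Jchain, the antibody joining chain gene of plasma cells, at 1304 CPM. The other 6 markers, a sum formed after the values were seen, came to 113, 239.6, 441 and 258 CPM in Ex4 and 154, 292, 452 and 232 CPM in PBS. Among PBS libraries this sum ran in the same order as Bcl6, and PBS 1 was lowest in both. Among Ex4 libraries the order differed. Ex4 1 had the lowest sum, 113 CPM, yet its Bcl6 of 15.8 CPM lay above that of Ex4 2 and Ex4 4. The part of B cells in the Bcl6 level was not tested.

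Exendin-4 acts through a receptor coupled to cAMP, and CREB, the factor that cAMP activates, binds the cAMP response element TGACGTCA or its shorter form TGACG. The full element was found in 0 of the 11 promoter windows of these regulators and in 1.55% of all 32851 windows, and the shorter form, on either strand, in 2 of 11 and in 17.8% of all. Id3 held 1 match and Bcl6 a pair. The 250 bases before the Bcl6 start, chr16:23988853-23989102 on the minus strand in GRCm38.p6 (RefSeq), are shown for that pair. Capitals mark CGTCA and TGACG, whose first bases lie 72 and 56 bases before the start.

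Bcl6 promoter: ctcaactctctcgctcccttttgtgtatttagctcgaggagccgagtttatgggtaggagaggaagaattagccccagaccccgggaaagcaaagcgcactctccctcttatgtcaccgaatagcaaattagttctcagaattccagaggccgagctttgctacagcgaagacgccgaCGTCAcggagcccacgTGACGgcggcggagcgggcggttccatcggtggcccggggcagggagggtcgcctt

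Windows were available for 8 of the 10 genes, and Zbtb16 and Ikzf2 were not among them. The T-box site AGGTGTGA and the GATA site AGATAA were in 0 of the 11 windows, against 1.12% and 9.99% of all windows. These are descriptions of letters and say nothing about binding in the IELs.

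Of 7 follicular helper genes 6 were tested, all with log2 fold changes above 0 (median 0.79), and 0 were called. Icos, a costimulatory receptor gene, was at 194, 80.2, 174 and 160.4 CPM in Ex4 and 13.7, 104, 40.2 and 64.6 CPM in PBS (1.45, SE 0.59, edgeR adjusted p = 0.636). Sh2d1a and Pdcd1 had log2 fold changes of 0.93 and 0.74, and PBS 1 had the lowest value of all 3. Cxcr5, the follicle-homing receptor gene that B cells also express, had a log2 fold change of 0.17 (SE 0.61, edgeR adjusted p = 0.973). Prdm1, which encodes Blimp-1, the antagonist of Bcl6, was at 261, 210.05, 237 and 193 CPM in Ex4 and 96.2, 214, 182 and 213 CPM in PBS (0.35, SE 0.21, edgeR adjusted p = 0.744).

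Zbtb16 (chr9:48654297-48836222, minus strand) encodes PLZF, which gives NKT cells and other innate-like lymphocytes their rapid effector character. It had 5.36, 3.76, 4.04 and 7.71 CPM in Ex4 libraries 1 to 4 and 3.46, 3.57, 3.37 and 4.67 CPM in PBS libraries 1 to 4. PBS 1, 2 and 3 were below every Ex4 library, while PBS 4 was above Ex4 2 and 3. The means were 5.22 ± 1.80 CPM in Ex4 and 3.77 ± 0.605 CPM in PBS. The log2 fold change of 0.46 (SE 0.35, 95% interval -0.29 to 1.22, edgeR adjusted p = 0.821) was 0.21 without Ex4 4, the library with the highest value.

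Innate-like receptor genes commonly seen with PLZF lay on either side of 0. Of 8 tested, 0 were called, 3 were above and 5 below 0, and the median log2 fold change was -0.41. Klrb1c was at 3.72, 9.56, 9.87 and 5.24 CPM in Ex4 and 102, 9.34, 7.54 and 7.54 CPM in PBS, and Klrb1a at 3.77, 5.00, 3.79 and 2.48 CPM in Ex4 and 48.3, 4.65, 4.81 and 4.44 CPM in PBS. Their negative log2 fold changes of -2.14 and -2.04 came with values in PBS 1 far above those of every other library. Slamf1, a receptor gene of the SLAM family, had a log2 fold change of 0.67 (SE 0.24, edgeR adjusted p = 0.524), and Klrb1f of -1.45 (SE 0.58, edgeR adjusted p = 0.557).

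Of 10 other BTB zinc finger and corepressor genes, through which Bcl6, PLZF and ThPOK repress, 0 were called and the median log2 fold change was -0.065. Bcor, a corepressor that binds Bcl6, had -0.31 (SE 0.17), Zbtb7a, a relative of Zbtb7b, 0.20 (SE 0.14), and Hdac3, a histone deacetylase, -0.18 (SE 0.14). Their edgeR adjusted p-values were 0.695, 0.799 and 0.820.

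Ikzf2 (chr1:69531214-69687245, minus strand) encodes Helios, an Ikaros family factor of regulatory T cells and of IELs selected on self antigen. It had 608, 789, 868 and 885 CPM in Ex4 libraries 1 to 4 and 642, 710.4, 687 and 1022 CPM in PBS libraries 1 to 4. The lowest library was Ex4 1 and the highest PBS 4, so the PBS range reached beyond the Ex4 range at the top and lay inside it at the bottom. The means were 787 ± 126 CPM in Ex4 and 766 ± 173 CPM in PBS. For Ikzf2 the log2 fold change of 0.041 (SE 0.17, 95% interval -0.33 to 0.41, edgeR adjusted p = 0.979) took either sign as single libraries were left out, from -0.045 without PBS 1 to 0.19 without PBS 4.

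Helios was abundant while Foxp3, the defining gene of regulatory T cells, was scarce, at 3.01, 4.33, 3.14 and 1.84 CPM in Ex4 and 0.481, 4.11, 0.992 and 0.506 CPM in PBS (log2 fold change 1.01, SE 0.65, edgeR adjusted p = 0.778). Of 7 genes seen with Helios or in regulatory T cells, 0 were called, and the median log2 fold change was 0.099. Ctla4, an inhibitory receptor gene, was at 642, 322, 562 and 516 CPM in Ex4 and 25.3, 353, 199 and 355 CPM in PBS (1.13, SE 0.72, edgeR adjusted p = 0.786), with PBS 1 far below the rest. Il2ra and Itgb8 had log2 fold changes of -0.34 and 0.88 (edgeR adjusted p = 0.721 and 0.775).

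**Figure D3:**
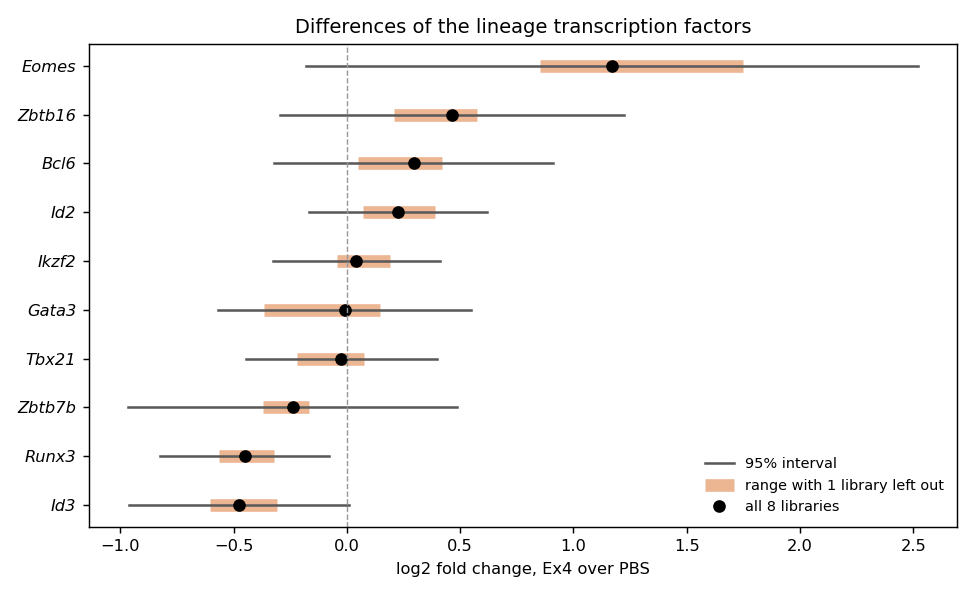
Log2 fold change of Ex4 over PBS for the 10 regulators (points), with the 95% interval of the edgeR fit (thin lines) and the range when each library in turn is left out (broad bars). The interval of Runx3 runs from -0.83 to -0.078, those of the other 9 include 0, and the broad bars of Ikzf2, Gata3 and Tbx21 cross 0. The intervals are not adjusted for the number of genes. Of all genes tested, 7.61% had an interval without 0, and the edgeR adjusted p of Runx3 was 0.556.

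Among 31 tested lineage and effector regulators outside the 10, 0 were called. Their median log2 fold change was 0.23, with 25 above and 6 below 0, beside 0.020 for all genes tested. Their summed level was lowest in PBS 1, at 5178 CPM against 6297 to 8072 CPM in the other libraries. PBS 1 also held the lowest value of Rora and of Runx2. The part of PBS 1 in the values above 0 was not tested. Rora, a regulator of innate lymphoid and type 17 cells, had 53.6, 17.1, 42.8 and 39.3 CPM in Ex4 and 7.36, 19.5, 11.9 and 16.8 CPM in PBS (1.46, SE 0.36, edgeR adjusted p = 0.351). Runx2, a relative of Runx3, had 86.9, 43.3, 73.4 and 99.999 CPM in Ex4 and 15.6, 36.5, 41.5 and 51.7 CPM in PBS (1.06, SE 0.36, edgeR adjusted p = 0.524), the opposite sign to Runx3. Gfi1, a transcriptional repressor of lymphoid and myeloid cells, had -0.48 (SE 0.17, edgeR adjusted p = 0.523) and Tcf7, which encodes the memory factor TCF-1, -0.49 (SE 0.23, edgeR adjusted p = 0.659). Tcf7 was highest in PBS 1, at 103 CPM against 36.4 to 60.2 CPM in the other libraries. Over the 9 lists of partners and targets together, 13 of 88 tested genes, or 14.8%, lay at an unadjusted edgeR p under 0.05, beside the 7.61% of all genes. There was no overlap for 2, or 2.27%, beside 4.95%. Most of the 13, such as Rora, Icos and Cd8a, had their lowest or highest value in PBS 1, but Gfi1 and Ifng did not. The lists were chosen with earlier results of these data known and their genes share the same libraries, so the difference between these shares was not tested.

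Levels between genes were compared per kilobase of exon, as the mean over all 8 libraries. Id2 was at 389 CPM per kilobase, above 99.4% of the tested genes, and Ikzf2 at 66.9, above 94.1%. Runx3 at 33.2, Tbx21 at 29.4 and Gata3 at 26.9 followed. Id3 was at 8.97 and Bcl6 at 2.11, and Zbtb16 at 0.851, Zbtb7b at 0.740 and Eomes at 0.367 were the lowest, Eomes being above 12.9% of tested genes. The highest mean was 1059 times the lowest.

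Some neighbours in this order were separate in all 8 libraries and others were not. Every library of Id2 lay above every library of Ikzf2, and likewise for Ikzf2 over Runx3, Gata3 over Id3 and Id3 over Bcl6. Runx3, Tbx21 and Gata3 overlapped: Runx3 exceeded Tbx21 in 5 of 8 libraries, and Tbx21 exceeded Gata3 in 5 of 8. Zbtb16 exceeded Zbtb7b in 4 of 8. Bcl6 exceeded Zbtb16, and Zbtb7b exceeded Eomes, in 8 of 8 libraries, although their ranges overlapped between libraries. Within a gene, the widest spread was that of Eomes, whose highest library was 9.75 times its lowest, and the narrowest that of Zbtb7b, at 1.58 times.

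**Figure D4:**
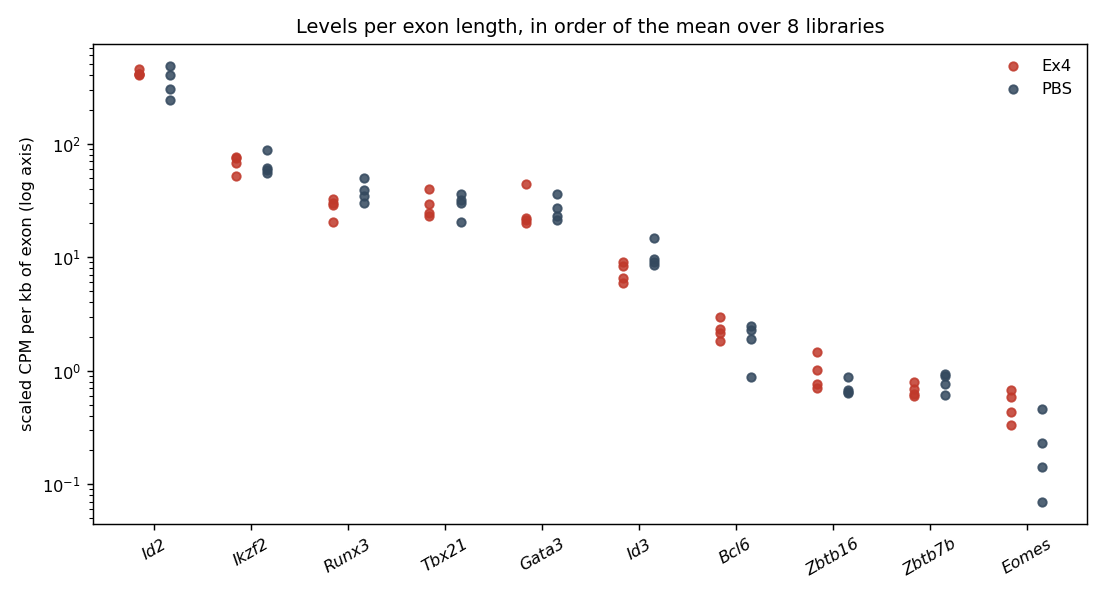
Scaled CPM per kilobase of exon (log axis) of the 10 regulators in Ex4 (red) and PBS (dark blue) libraries, ordered by the mean over 8 libraries. Id2 and Ikzf2 stand above the rest at 389 and 66.9 CPM per kilobase, Runx3, Tbx21 and Gata3 overlap, and Eomes at 0.367 is lowest.

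The regulators did not vary together as 1 block over the 8 libraries. Among 45 pairs, Pearson's r of log2 CPM was above 0 in 27, with a median of 0.047, as a description over 8 libraries that share their depth and cell mixture within each pair. The highest were Eomes with Zbtb16 (r = 0.74), Gata3 with Zbtb16 (0.71) and Id2 with Bcl6 (0.70). The lowest were Id3 with Zbtb16 (-0.79) and Tbx21 with Zbtb7b (-0.70).

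Likeness was sought among 7137 genes whose mean log2 CPM was 4 or more, with predicted genes, clone names and antigen receptor segments left out. The ones most like Runx3 over the 8 libraries were Gatad2a (r = 0.97) and Urb1 (0.93). Gatad2a, a subunit of the NuRD repressor complex, was at 149 ± 8.59 CPM in Ex4 and 165 ± 12.9 CPM in PBS. Id2 was most like Taf10 (0.98) and Rpl9 (0.98), Id3 most like Unc93b1 (0.95) and Gng12 (0.94), and Bcl6 most like Ahr and Il6st (both 0.96). Tbx21 was most like Tmem115 (0.95) and Plcb3 (0.94), Eomes like Zbtb7a (0.96) and Leng1 (0.95), and Zbtb7b like Chuk (0.96) and Larp4 (0.95). Gata3 was most like Mark2 (0.97) and Txndc12 (0.96), Zbtb16 like Rnf168 (0.95) and Zfp444 (0.93), and Ikzf2 like Ube2b (0.93) and Rpl7 (0.89). These r values are the highest of 7137 over 8 points, and none of the named genes was called in edgeR.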

How the data were processed

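The authors deposited 1 table of whole-number gene counts, not normalised, with 1 column per mouse. Per the submitters' processing notes, the tools were STAR 2.7.9a and DESeq2 and the build was mm10. The annotation, the read counter and its strand setting were not given in the sources read. Columns were matched to mice by their descriptions, and 0 per-sample columns were left unused. All replicate pairs differed by more than sampling noise (the chi-square per gene averaged 22.3 to 83.3), and 8 libraries were counted. The labels describe separate mice and give no litter, cage or batch.

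The test was edgeR's quasi-likelihood F test (edgeR 4.0.16 in R 4.3.3) with robust dispersions, TMM scaling, a filterByExpr filter and Benjamini-Hochberg adjustment over 14691 genes at a threshold of 0.05. The filter asked for about 0.480 CPM in 4 libraries. All 10 regulators passed it, Eomes in 4 Ex4 and 3 PBS libraries. SEs and 95% intervals were derived from the F statistic. The fit was tested on simulated data. Alternatives used DESeq2 1.42.0, limma-voom (limma 3.58.1), other scaling and filters, libraries left out, a replicate block, and the label order or an epithelial marker score as covariates. Ratios used a prior of 0.5 counts. Lengths were exon unions of GENCODE M21 and promoters RefSeq windows, both on GRCm38, the assembly also called mm10. Genes at matched depth are means of 5 draws of 13386889 counts. Figures used Python 3.11.15 with matplotlib 3.10.9.

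The 10 regulators, the lists and the tests were chosen with earlier results of these data known. Beside the 10, the 3 genes of each list of partners and targets with the smallest p were named, with Cd8a, Cd8b1, Cd4, Tcf3, Tcf12, Prdm1, Tcf7, Foxp3, Cxcr5, Ifng and Klrb1c whatever their values, and for each regulator the 2 genes with the highest r. Cd3e, Jchain, Il5, Il13, Kit, Klre1 and Ncr1 were chosen after their values were seen. Zfp683 and protein sequences were not analysed here.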

Additional observations from a re-analysis of the deposited data

Results flagged for a closer look

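A library was singled out where its distance to the next value took up more of its group's range than Dixon's 95% limit for 4 libraries. This occurred in 9 of 140 groups examined, where chance gives about 7. Among the regulators it occurred in 2 of 20. Id2 was high in Ex4 3, at a log2 CPM of 10.10 against 9.97 for its neighbour, in a group with little spread. Gata3 was high in Ex4 4, at 7.45 against 6.46, and the Eomes to Tbx21 ratio was high in the same library, at a log2 value of -5.16 against -6.06.

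The other values, all in log2 CPM, were of genes outside the 10. PBS 1 was high for Klrb1c at 6.67 against 3.24, for Klrb1a at 5.596 against 2.29 and for the epithelial gene Cdh1 at 5.81 against 4.89, and low for Areg at -1.07 against 2.55. The summed level of the 10 epithelial markers did not follow Cdh1. In PBS 1 that sum was 503 CPM, the lowest of the PBS libraries. Ex4 2 was low for Areg at 2.02 (its neighbour at 3.62) and for Itgb8 at -0.18 (its neighbour at 1.79).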

How the results depend on the processing

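Under 19 alternatives 0 regulators were called in each, although DESeq2 gave no adjusted p for Eomes, Zbtb7b and Zbtb16. Of the log2 fold changes of single regulators, 174 kept their sign. The 16 that did not were all of Tbx21, Gata3 or Ikzf2, which lay near 0. With 1 library left out Tbx21 ran from -0.22 to 0.075, Gata3 from -0.36 to 0.15 and Ikzf2 from -0.045 to 0.19. Without both PBS 2 and Ex4 3 they were 0.18, 0.031 and -0.054, and Gata3 was 0.024 with upper-quartile factors. The cause was not tested. The number of genes called, 2 in all, was 8 without a filter, 83 in DESeq2, 1 in limma-voom and 1 with the epithelial score, and ran from 1 to 14 with 1 library left out (14 without PBS 2). With 1 library left out, an alternative chosen after seeing the data, the difference in log2 ratio ran from 0.88 to 1.85 for Eomes to Tbx21, -0.36 to 0.0094 for Runx3 to Zbtb7b, -0.96 to -0.60 for Id3 to Id2 and -0.37 to 0.19 for Gata3 to Tbx21.

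With the replicate number as a replicate block 1 gene and 0 regulators were called, and Runx3 had a log2 fold change of -0.45. Deviations from the group means had r = 0.090, -0.027, -0.24 and 0.14 between libraries of the same number, for numbers 1 to 4. The highest r of each Ex4 library with a PBS library of another number was 0.073, 0.12, 0.36 and 0.26. Without a litter, cage or batch in the labels, these values cannot tell whether libraries share more than a number. At 7 to 55 counts per library, depth limits Eomes most.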
